A study of Peromyscus maniculatus with 16 samples.

Results

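Mitosis is the step in which a cell that has copied its DNA condenses its chromosomes, attaches them to a microtubule spindle, pulls the sister chromatids apart and divides. Cyclin-dependent kinase 1 with its cyclin partners starts the process, the kinetochore couples each chromosome to the spindle, the anaphase-promoting complex ends it, and the central spindle places the ring that divides the cell. Most hepatocytes of an adult liver are quiescent, so the RNAs of these proteins are usually scarce there and become abundant when liver cells or the immune and stromal cells among them divide.

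The set was defined by name, as 50 symbols of mitosis and spindle genes, and 43 of them had a row in the count table of 16910 genes. The symbols were chosen with earlier results of these data known, so shares of the set beside shares of all genes are description and not a test. All 43 reached a normalized level of 0.5 CPM, reads scaled to a common library total, in at least 1 animal, the filter that left 12639 genes for testing. Plk1, Aurka, Bub1b, Ube2c, Dlgap5, Kif20b and Mki67 were not analysed here.

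RNA was sequenced from whole liver of 16 deer mice (Peromyscus maniculatus), outbred animals that were 10 months old when killed. The control group (C) received regular chow and held 6 males, 5 of the BW stock (P. m. bairdii) and 1 of the SM2 stock (P. m. sonoriensis). The high fat diet (HFD, 58 kcal% fat, with sucrose) was given for 28 weeks to the other 10 animals, which were grouped by liver histology. The group without steatosis (NS) held 5 males, 4 BW and 1 SM2, and the group with steatosis (S) held 1 SM2 male, 1 BW male and 3 BW females. Animals are named by group and a number that only identifies them. C1, NS1 and S1 were the SM2 animals, S1 and S3 the males of S, and S2, S4 and S5 the females. Within S, 3 of 5 animals were female and every other animal of the series was male, so sex and steatosis cannot be fully told apart. Each library came from 1 animal, and the outcome of HFD, not an assignment, put an animal in NS or S.

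Between 4640733 and 11349971 reads were counted per animal, the fewest in S3. The 8 tested hepatocyte markers summed to between 54821 and 103794 CPM, so each library had the make-up of liver. S3 stood apart from the rest, with 117 genes at 5 or more times the next highest animal (compared after adding 0.5 CPM to the latter) against 0 to 10 genes in each other animal. Because whole liver was used, a change in the number of dividing cells and a change in RNA per cell cannot be told apart.

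In C most of the set was scarce. The mean C level was under 1 CPM for 29 of 43 members and at 1 CPM or more for 14. A level of 3 counts, taken here as the floor of a library, corresponded to between 0.262 and 0.563 CPM, and intervals and floors cover counting error only. Every C animal lay at or under that floor for 8 members, namely Cdc25c, Nuf2, Spc25, Cenpf, Birc5, Kif2c, Ckap2l and Psrc1. The summed level of all 43 members was between 81.9 and 118 CPM in C and between 85.5 and 109 CPM in NS. In S it was 141 CPM in S1, 132 in S2, 258 in S3, 131 in S4 and 260 in S5, above all C animals in all 5, and S3 and S5 stood well above the other 14 animals.

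**Figure D1:**
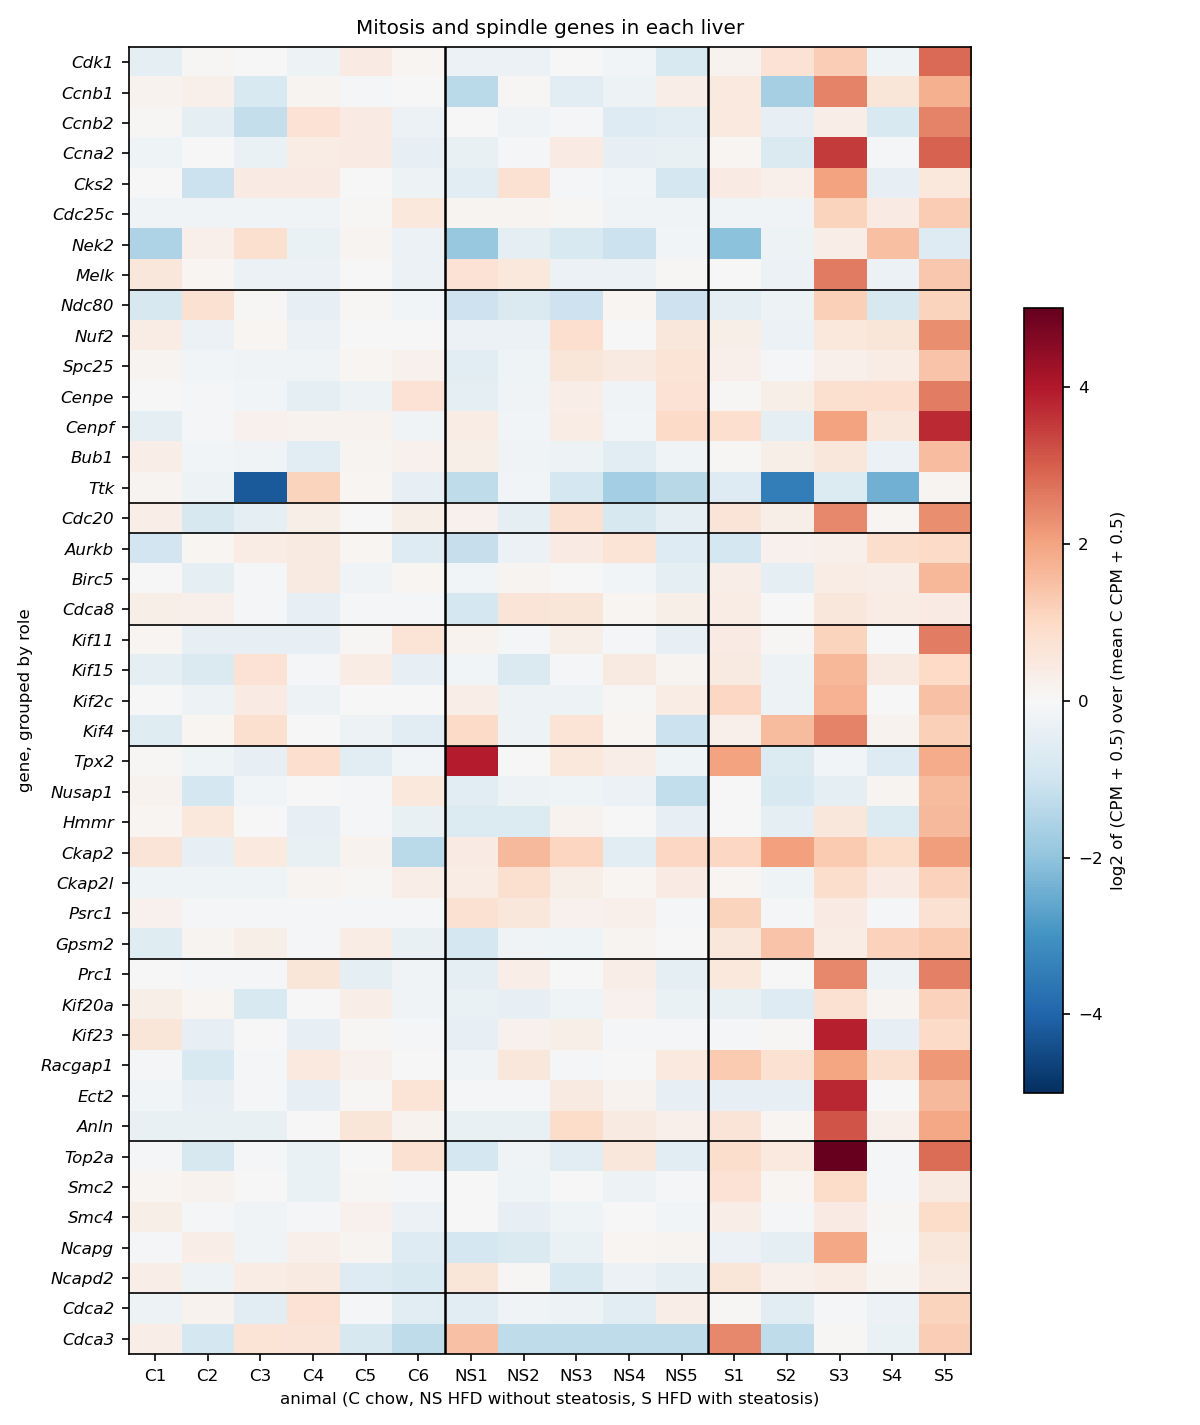
Level of the 43 members (rows, grouped by role with a line between roles) in 16 livers (columns, with lines between C, NS and S), as the log2 of the level plus 0.5 CPM over the C mean plus 0.5 CPM. Red cells fill the columns of S3 and S5, whose medians over members were 0.90 and 1.41, while the other columns had medians between -0.28 and 0.33.

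The comparison S vs C asked which members differ between a fatty liver on HFD and a chow liver. In the fit over all genes (edgeR quasi-likelihood test, a call needing both an adjusted p under 0.1 and a 2-fold difference or more), 11 of 43 members rose in S and 0 fell, which is 25.6% of the set beside 3.09% of all genes tested that were called higher. The 11 were Cdk1, Ccna2, Cenpf, Ckap2, Gpsm2, Prc1, Kif23, Racgap1, Ect2, Anln and Top2a. At an unadjusted p under 0.05, 22 members were higher (51.2% of the set, beside 13.1% of all genes) and 0 were lower. The fitted log2 fold change was above 0 for 42 of 43 members, with a median of 1.58 beside 0.10 over all genes. The exception was Ttk, at -0.96 ± 0.70 (SE, adjusted p = 0.421). Of the 11, 9 were among the 29 members with a mean C level under 1 CPM, where single counts weigh heavily, and 2, Ckap2 and Gpsm2, among the 14 others. Of the 43, 8 passed the filter on low levels only through S3 or S5. The shares of members given above are thus partly fixed by that filter. A value written as a number ± another is from here on a log2 fold change with its SE, in S vs C unless stated.

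The call count rested on few animals. Leaving out S3 gave 4 called members (Cenpf, Ckap2, Gpsm2 and Racgap1), leaving out S5 gave 4 (Ckap2, Kif23, Racgap1 and Top2a), and leaving out both, an alternative chosen after the data were seen, gave 1, Gpsm2, beside 0.993% of the genes then tested. Without both, 35 members passed the filter on low levels, with a median log2 fold change of 0.42 beside 1.37 for the same 35 in all 16 animals, and Prc1, Kif23 and Ect2 were no longer tested. Leaving out a control animal also lowered the count, with medians of 1.37 to 1.76, to 5 without C1, 7 without C2, 6 without C3, 4 without C4, 6 without C5 and 4 without C6. Leaving out S1, S2 or S4 raised it, to 14, 12 and 16, with medians of 1.65, 1.73 and 1.72. The share of all genes called is not given for the fits that left out a single animal. Whether these counts moved apart from that share was not tested. With sex as a covariate 8 members were called, Cdk1, Cenpf, Ckap2, Gpsm2 and Prc1 being lost and Cks2 and Kif2c gained. All females were in S, so the S vs C fold changes of that fit rest on S1 and S3, the males of S. They match those in males alone (Top2a 4.79 and Gpsm2 0.48 in both), and the fit cannot separate sex from leaving out S2, S4 and S5. Racgap1 was called in each fit that left out a single animal.

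**Figure D2:**
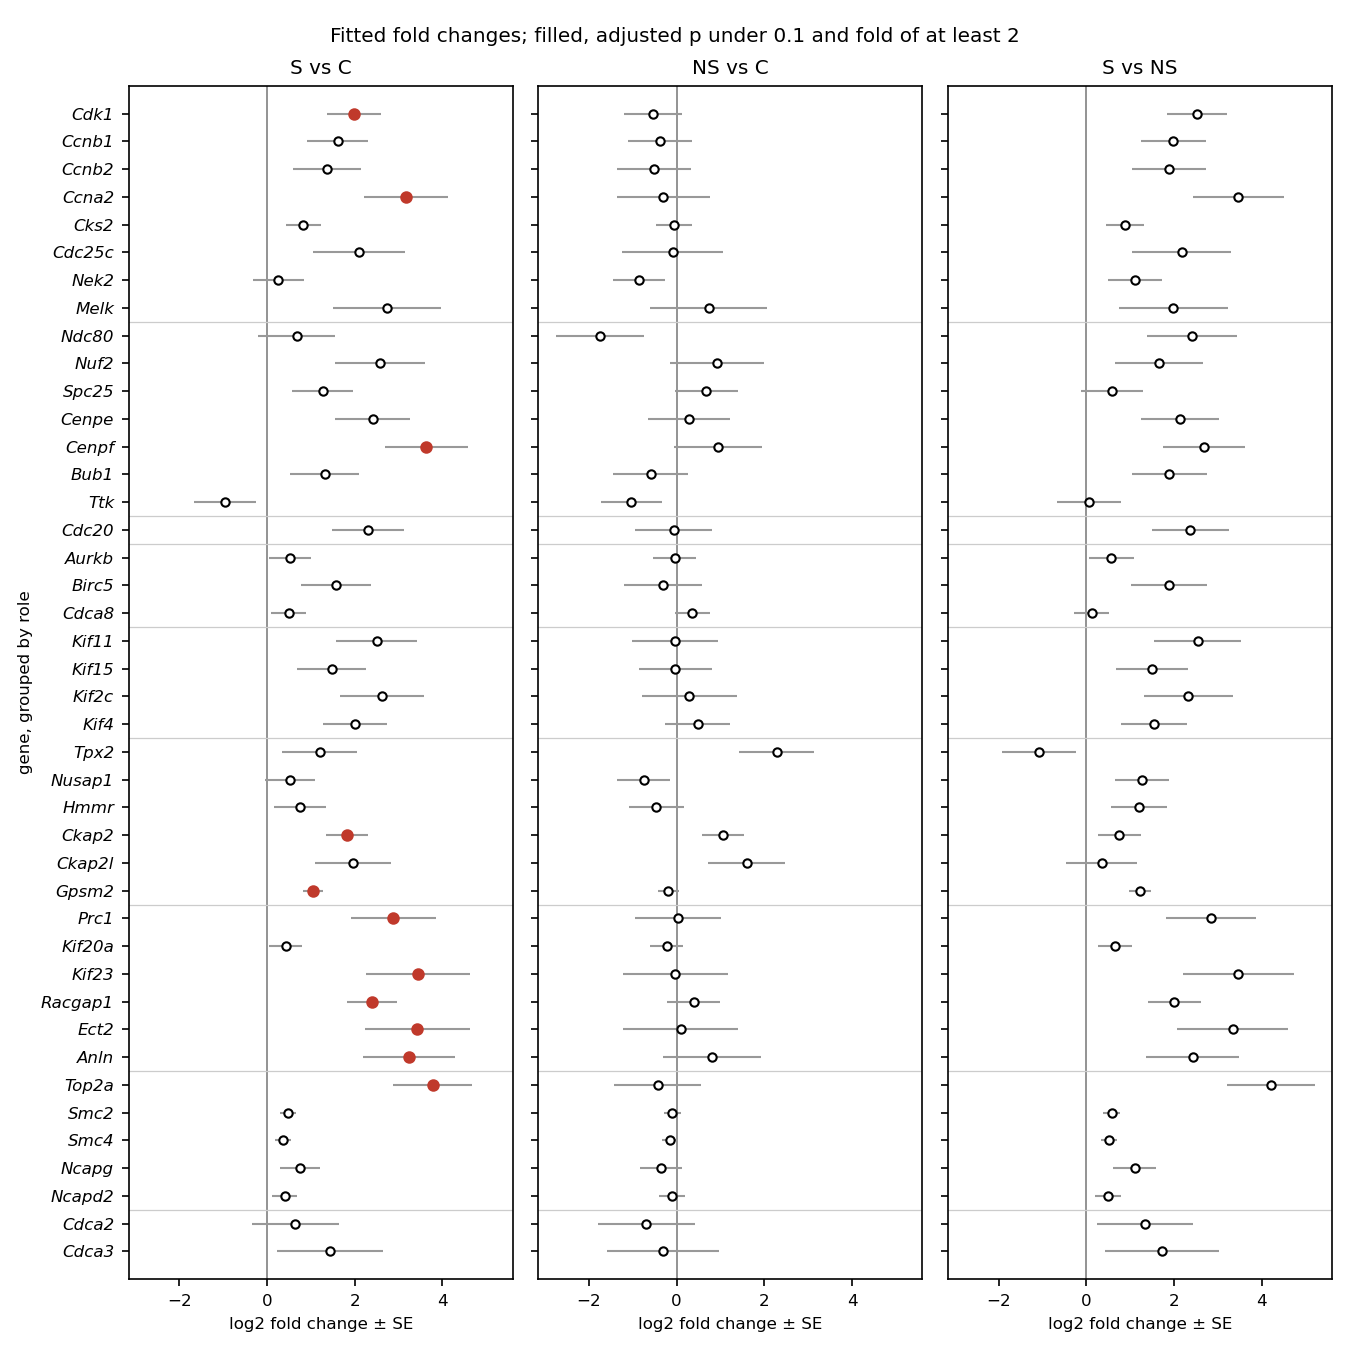
Fitted log2 fold change (x axis, ± SE, edgeR over all 16 animals) of 42 members (rows, by role) in the 3 comparisons, 1 per panel; filled points passed an adjusted p under 0.1 and a fold of at least 2, and Psrc1 is left out because C held 1 count of it. Filled points appear in S vs C alone, 11 of them, and the points of S vs NS lie to the right of 0 like those of S vs C while those of NS vs C scatter around 0.

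Among the kinases and cyclins that drive entry into M phase, 2 of 8 rose in S vs C (median log2 fold change 1.80). Cdk1, the catalytic kinase, had a median of 0.602 CPM in C (0.295 to 0.949), and NS animals had 0.378, 0.383, 0.592, 0.485 and 0.136 CPM in the order NS1 to NS5. The S animals had 0.731, 1.30, 2.06, 0.436 and 7.25 CPM in the order S1 to S5, so that S2, S3 and S5 were above all C animals and S1 and S4 were within their range. The log2 fold change was 1.98 ± 0.62 (SE, adjusted p = 0.0747), and 0.42 (adjusted p = 0.723) without S3 and S5. It was 0.88 (adjusted p = 0.326) without S5 alone and 1.19 (adjusted p = 0.399) with sex as a covariate.

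Ccna2, which encodes cyclin A2, the partner of Cdk2 in S phase and of Cdk1 in G2, had a median of 0.255 CPM in C (0.111 to 0.569) and between 0.121 and 0.592 CPM in NS. In S it was 0.365 CPM in S1, 0 in S2, 8.63 in S3, 0.262 in S4 and 5.72 in S5. S3 and S5 were about an order of magnitude or more above every chow animal, and the other 3 were not above the C range. The log2 fold change of 3.17 ± 0.95 (SE, adjusted p = 0.0652) turned to -0.46 (adjusted p = 0.805) without those 2 animals, and was 2.31 (adjusted p = 0.175) without S3 alone and 2.77 (adjusted p = 0.112) without S5 alone.

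Ccnb1, the gene of cyclin B1, the mitotic partner of Cdk1, had 1.71, 0, 8.26, 1.92 and 4.96 CPM in S1 to S5 and 0.433 to 1.41 CPM in C. The S group spanned the C range from below to above, and the difference did not pass the test (log2 fold change 1.61 ± 0.69, SE, adjusted p = 0.171). The other cyclin B gene, Ccnb2, was highest in S5 (5.82 CPM), with 0.939 CPM in S3 and at most 1.39 CPM in C (1.37 ± 0.78, adjusted p = 0.291). Cks2, a small protein that binds cyclin-dependent kinases, was the most abundant of this group, with 2.81 to 8.67 CPM in C and 27.0 CPM in S3 against 9.35 in S5 (0.83 ± 0.41, adjusted p = 0.229).

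The phosphatase gene Cdc25c, whose product activates Cdk1, was at or under the floor in every C and NS animal and held 16 counts over all of S. Melk, a kinase of proliferating cells, reached 3.19 CPM in S3 and 1.05 in S5 against at most 0.394 in C (2.73 ± 1.23, adjusted p = 0.189). The centrosomal kinase Nek2 had another pattern, with its 3 lowest levels in the 3 SM2 animals (1.08 CPM in C1, 0.756 in NS1 and 0.609 in S1) and its highest in S4 (12.8 CPM), and a log2 fold change of 0.26 ± 0.58 (adjusted p = 0.818).

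Of the kinetochore and spindle checkpoint genes, 1 of 7 rose in S vs C (median log2 fold change 1.31). Cenpf encodes a large protein that joins the outer kinetochore in G2 and mitosis. It had a median of 0.217 CPM in C (0 to 0.289, 9 counts over 6 animals) and 0.378, 0.128, 0.395, 0.121 and 0.814 CPM in NS1 to NS5. In S1 to S5 it had 0.731, 0, 2.25, 0.523 and 8.49 CPM, above all C animals in 4 of 5, with 89 of the group's 113 counts in S5 (3.63 ± 0.95, adjusted p = 0.0452). The call was lost without S5 (2.14, adjusted p = 0.152) and with sex as a covariate (2.90, adjusted p = 0.153).

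No other kinetochore member was called by edgeR in S vs C, and DESeq2 called Cenpe beside Cenpf. Nuf2 and Spc25, subunits of the Ndc80 complex that grips microtubules, had 2.57 and 1.43 CPM in S5 against 0.375 CPM each in S3 and at most 0.295 and 0.333 CPM in C. The complex's namesake Ndc80 had 1.88 CPM in S3 and 1.72 in S5 beside 0.0984 to 1.25 CPM in C. Cenpe, a kinetochore motor that moves chromosomes to the spindle equator, had 3.72 CPM in S5 and missed the edgeR threshold (2.41 ± 0.85, adjusted p = 0.105). Bub1, a kinase of the spindle checkpoint, had 1.62 CPM in S5 and 0 to 0.394 CPM in C (1.31 ± 0.78, adjusted p = 0.314). The checkpoint kinase Ttk spread from 0.144 to 25.0 CPM within C and from 0.556 to 12.5 CPM within S, so its group means say little. For the anaphase-promoting complex, its activator Cdc20 had 4.13 CPM in S3 and 3.81 in S5 against 0 to 0.590 CPM in C, and missed the edgeR threshold (2.31 ± 0.82, adjusted p = 0.104), while DESeq2 called it.

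The chromosomal passenger complex, which corrects wrong attachments and later moves to the midzone, had 0 of 3 members called by edgeR or DESeq2 and 0 at an unadjusted p under 0.05 in S vs C. Its kinase Aurkb was measurable in every animal, with a median of 2.19 CPM in C (0.787 to 2.91), 0.630 to 3.52 CPM in NS, and 0.853, 2.41, 2.44, 4.10 and 4.29 CPM in S1 to S5. The groups overlapped widely and the log2 fold change was 0.52 ± 0.48 (SE, adjusted p = 0.535). With sex as a covariate it was -0.29 (adjusted p = 0.833), a value that rests on S1 and S3. The lowest levels of all animals were those of the SM2 animals C1, NS1 and S1, so sex and stock cannot be told apart in that change of sign. Cdca8, the borealin gene, lay between 0.378 and 2.04 CPM in all animals (0.49 ± 0.39, adjusted p = 0.466). Birc5, the survivin gene, was at or under the floor in every C and NS animal and reached 1.62 CPM in S5 (1.58 ± 0.80, adjusted p = 0.236).

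None of the 4 spindle kinesins passed the edgeR test in S vs C, where their median was 2.26 on the log2 scale; 3 had an unadjusted p under 0.05, and DESeq2 called Kif4. Kif11, the motor that pushes spindle poles apart, had 3.34 CPM in S5, 0.939 in S3 and at most 0.555 in C (2.50 ± 0.93, adjusted p = 0.119). The chromokinesin Kif4 had 5.26 CPM in S3, 2.59 in S2 and 1.91 in S5 against 0.197 to 1.30 CPM in C (2.01 ± 0.73, adjusted p = 0.111). The microtubule depolymerase Kif2c (2.62 ± 0.96, adjusted p = 0.117) and the spindle motor Kif15 (1.47 ± 0.78, adjusted p = 0.258) were highest in S3, at 1.50 and 2.06 CPM.

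Of the spindle microtubule-associated proteins, 2 of 7 rose, Ckap2 and Gpsm2, and both lost the call with sex as a covariate. Ckap2, a microtubule stabilizer of the spindle, had a median of 1.50 CPM in C (0.333 to 2.76) and 2.27, 5.99, 3.95, 0.970 and 3.80 CPM in NS1 to NS5. It had 3.78, 8.34, 4.69, 3.49 and 8.39 CPM in S1 to S5. All 5 S animals were above all 6 C animals, which held for 1.86% of all genes tested, and 3 of 5 NS animals were above them too. The log2 fold change was 1.82 ± 0.48 (SE, adjusted p = 0.0476) in S vs C and 1.06 ± 0.48 (adjusted p = 0.594) in NS vs C. With sex as a covariate the S vs C value was 1.38 (adjusted p = 0.198), and without S3 and S5 it was 1.66 (adjusted p = 0.146).

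Gpsm2, also called LGN, links the spindle to the cell cortex and so orients the division, and it works in the polarity of non-dividing epithelial cells as well. It was among the most abundant members, with a median of 21.6 CPM in C (13.6 to 27.0) and 11.3, 18.4, 17.9, 23.0 and 21.4 CPM in NS1 to NS5. The S animals had 31.4, 56.5, 27.0, 46.7 and 53.3 CPM. S3, the highest animal for many members, was the lowest of S here and level with the highest C animal, and all S animals were above all NS animals, as for 0.427% of all genes tested. The log2 fold change was 1.04 ± 0.23 (SE, adjusted p = 0.0291). The 3 females of S held the 3 highest levels of the 16 animals, and with sex as a covariate the log2 fold change was 0.48 (adjusted p = 0.295), so for Gpsm2 the female animals and steatosis cannot be told apart.

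The remaining proteins of this group did not pass. Tpx2, which activates Aurora A and seeds spindle microtubules, had 29.7 CPM in NS1, 7.55 in S1 and 6.68 in S5, and 0.741 to 3.05 CPM in the other 13 animals. Its highest and second highest levels were in SM2 animals, but the third SM2 animal, C1, had 1.57 CPM. Hmmr (0.75 ± 0.60, adjusted p = 0.464) and Nusap1 (0.53 ± 0.57, adjusted p = 0.602), which bundle and anchor spindle microtubules, were highest in S5, at 3.24 and 4.01 CPM. Ckap2l, a spindle pole protein, reached 0.763 CPM in S5, 0.563 in S3 and 0.510 in NS2 (1.96 ± 0.86, adjusted p = 0.179). Psrc1, a regulator of microtubule dynamics, had 1 count in all of C, 7 in NS and 10 in S, too few for a fold.

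Of the central spindle and cytokinesis genes, Prc1, Ect2 and Kif23 passed the filter only through S3 or S5. The share of calls in this group is therefore partly set by the filter. It was the highest of any role, 5 of 6, with a median log2 fold change of 3.06. Without S3 only Racgap1 of the central spindle and cytokinesis genes was called. These proteins act one after the other: Prc1 bundles the midzone microtubules, the kinesin Kif23 and the GTPase-activating protein Racgap1 form centralspindlin on them, centralspindlin recruits the exchange factor Ect2, Ect2 activates RhoA, and anillin (Anln) scaffolds the contractile ring. Racgap1 had a median of 0.314 CPM in C (0 to 0.693), 0.252, 0.765, 0.296, 0.364 and 0.678 CPM in NS1 to NS5, and 1.58, 0.927, 2.82, 0.959 and 3.34 CPM in S1 to S5. All S animals were above all C animals (as for 1.86% of all genes tested) and above all NS animals (as for 0.427%), with S3 and S5 highest. Its fitted difference was 2.40 ± 0.57 (adjusted p = 0.0358), and 1.68 (adjusted p = 0.170) without S3 and S5.

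Kif23, the partner of Racgap1, had 0.122, 0.185, 9.20, 0 and 0.763 CPM in S1 to S5 against 0 to 0.492 CPM in C and 0 to 0.296 CPM in NS. S3 was thus 12.1 times S5, and S1, S2 and S4 were within the C range (3.44 ± 1.18, adjusted p = 0.0936). Without S3 the value was 0.65 (adjusted p = 0.738). Ect2 had the same shape, with 0, 0, 8.63, 0.174 and 1.53 CPM in S1 to S5, 0 to 0.555 CPM in C and 0 to 0.395 CPM in NS (3.43 ± 1.19, adjusted p = 0.0972), and without S3 its value was 1.32 (adjusted p = 0.50).

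Anln had 0.487, 0.185, 5.07, 0.262 and 1.91 CPM in S1 to S5, 0 to 0.474 CPM in C (median 0.0693) and 0 to 0.691 CPM in NS. S3 and S5 were above every other animal, and the log2 fold change was 3.24 ± 1.05 (SE, adjusted p = 0.0822), or 2.17 (adjusted p = 0.236) without S3. Prc1 had 0.487, 0.185, 3.19, 0.0872 and 3.43 CPM in S1 to S5, 0 to 0.555 CPM in C and 0 to 0.383 CPM in NS, with S3 and S5 nearly equal and the other 3 within the C range (2.88 ± 0.97, adjusted p = 0.0900). It was 2.44 (adjusted p = 0.182) without S3 and 2.25 (adjusted p = 0.20) without S5. The member that was not called, Kif20a, which carries the passenger complex to the midzone, was present at 1.16 to 3.04 CPM in C and reached 4.32 CPM in S3 and 5.72 in S5 (0.42 ± 0.37, adjusted p = 0.513).

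**Figure D3:**
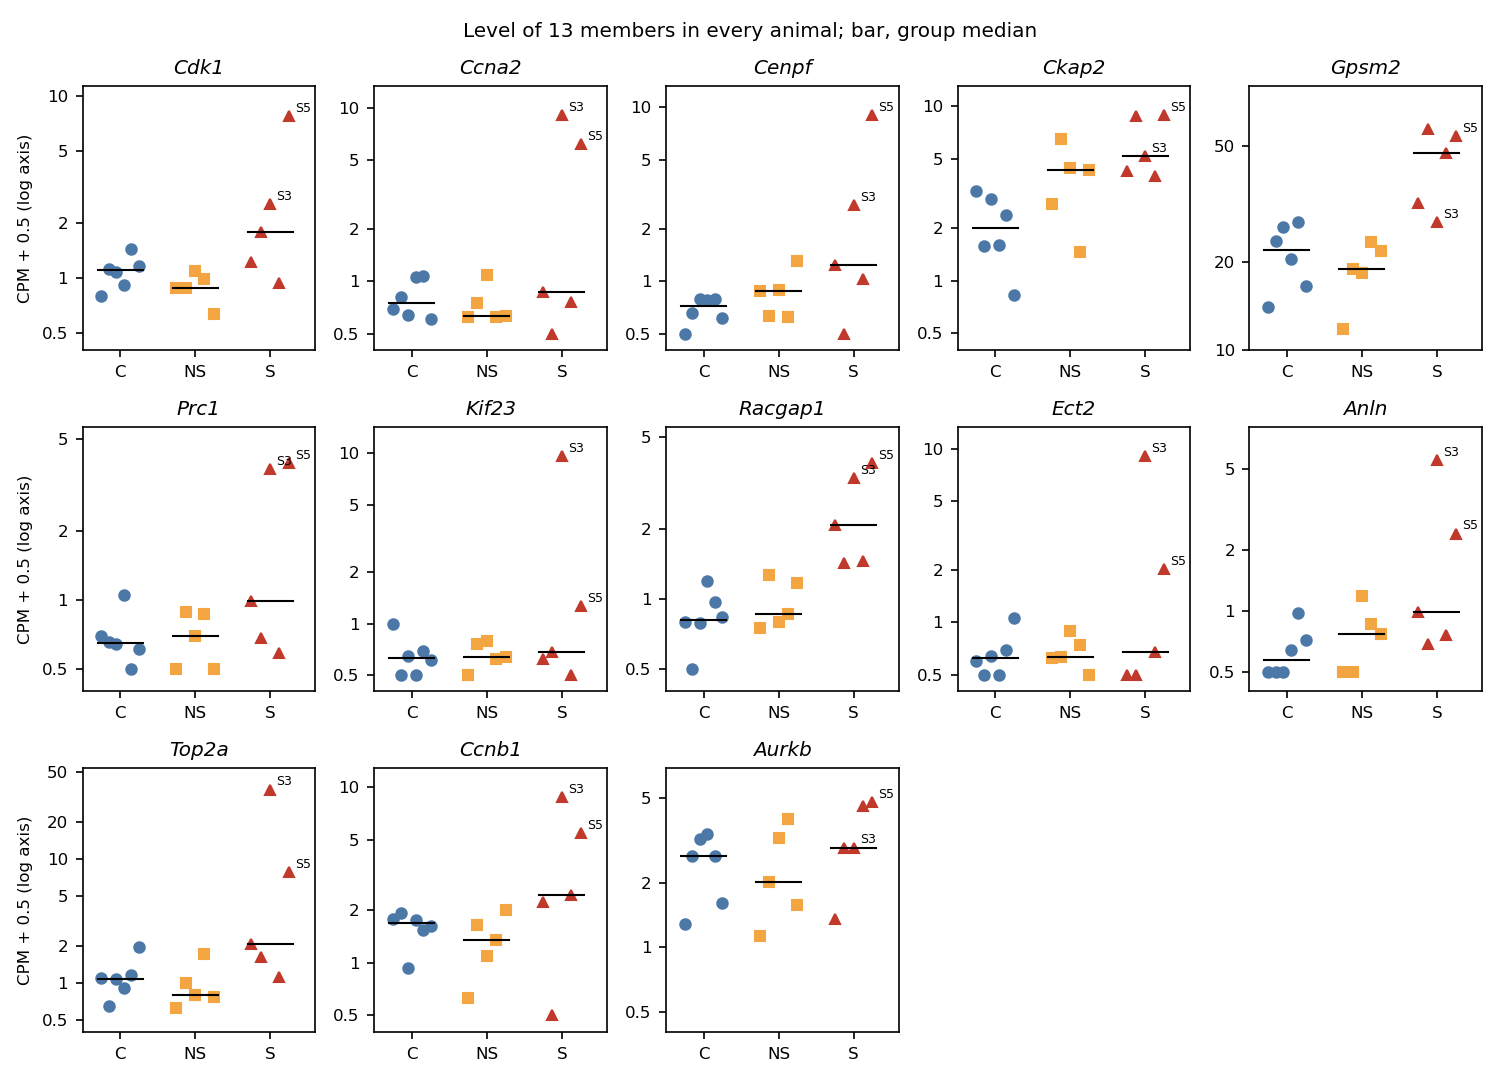
Level of the 11 called members, Ccnb1 and Aurkb in every animal (points, CPM plus 0.5 on a log axis) with the median of C, NS and S as a bar. S3 and S5 are labelled, and in 10 of the panels, Racgap1 included, they are the 2 highest animals. In Gpsm2, Ckap2 and Racgap1 all 5 S animals lie at or above the top of C.

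Among genes of chromosome structure, 1 of 5 rose. Top2a, the topoisomerase that untangles sister DNA before segregation, had a median of 0.584 CPM in C (0.156 to 1.44) and 0.126, 0.510, 0.296, 1.21 and 0.271 CPM in NS1 to NS5. It had 1.58, 1.11, 35.9, 0.610 and 7.34 CPM in S1 to S5. S1, S3 and S5 were above all C animals, and S3 held 191 of the 294 counts of the group. The log2 fold change was 3.78 ± 0.90 (SE, adjusted p = 0.0356), the highest of the set, 2.02 (adjusted p = 0.128) without S3, and 0.73 (adjusted p = 0.584) without S3 and S5.

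The condensin subunits, which compact chromosomes, were not called in any comparison by edgeR or DESeq2, although Smc2 had an unadjusted p under 0.05 in S vs C and Smc2, Smc4 and Ncapg did in S vs NS. Smc4 had 18.2 to 27.7 CPM in C and 20.6 to 42.5 CPM in S (0.37 ± 0.18, adjusted p = 0.215), and Smc2 had 7.07 to 10.2 CPM in C and 8.55 to 17.3 CPM in S (0.48 ± 0.18, adjusted p = 0.128). Ncapd2 had 3.77 to 9.43 CPM in C and 7.41 to 10.4 CPM in S (0.40 ± 0.29, adjusted p = 0.420). Ncapg, a subunit of condensin I, had 9.01 CPM in S3, 3.24 in S5 and at most 2.66 in C (0.75 ± 0.46, adjusted p = 0.333). Of the other cell division genes, Cdca2, which targets a phosphatase to anaphase chromatin, reached 1.05 CPM in S5 (0.64 ± 0.99, adjusted p = 0.730), and Cdca3, a trigger of Wee1 destruction, had 5.73 CPM in S1, 2.77 in NS1 and 2.29 in S5 (1.43 ± 1.21, adjusted p = 0.495).

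The comparison NS vs C asked whether HFD without steatosis was accompanied by the same change. No member was called by edgeR, and none by DESeq2, beside 0.0712% of all genes. At an unadjusted p under 0.05, 3 members (Tpx2, Ckap2 and Psrc1) were higher (6.98% of the set, beside 5.32% of all genes) and none was lower. The median log2 fold change was -0.07, beside 0.01 over all genes, with 16 members above 0 and 27 below. The lowest adjusted p was 0.513, for Tpx2, whose value (2.28 ± 0.85) came with the 29.7 CPM of NS1. Toward the other side, the lowest fitted value was that of Ndc80, at -1.75 ± 1.01 (adjusted p = 0.673).

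The comparison S vs NS asked what went with steatosis among animals on the same HFD. No member was called by edgeR, beside 0.00791% of all genes, which is a single gene. At an unadjusted p under 0.05, 22 members were higher (51.2% of the set, beside 6.19% of all genes) and 0 were lower, and the median log2 fold change was 1.66, beside 0.04 over all genes. The lowest adjusted p was 0.212, for Gpsm2 (1.22 ± 0.25), and the largest fitted value was that of Top2a, 4.21 ± 1.00 (adjusted p = 0.289). DESeq2 called 4 members, Ccna2, Cdk1, Gpsm2 and Top2a, all higher, beside 0.404% of all genes called higher. The comparisons of S with C and of S with NS share the 5 S animals, so that S3 and S5 enter both. Without those 2 animals the median of the 35 members still tested was 0.38, beside 1.34 for the same 35 with them.

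The members were then described animal by animal. S5 was above every C animal for 40 of 43 members (93.0%, beside 22.6% of all genes), S3 for 32 (74.4%, beside 26.9%), S1 for 17 (39.5%, beside 24.9%), S4 for 12 (27.9%, beside 18.3%) and S2 for 5 (11.6%, beside 20.6%). NS animals were above every C animal for 3 to 9 members (6.98 to 20.9%, beside 12.4 to 24.7% of all genes). S3 and S5 were both above all 14 other animals for 23 members (53.5%, beside 2.96% of all genes), among them Cdk1, Ccnb1, Ccna2, Cdc20, Kif11, Prc1, Racgap1 and Top2a. For 35 members (81.4%, beside 25.4% of all genes) the highest of the 16 animals was S3 or S5, and the exceptions were Nek2, Ttk, Cdca8, Tpx2, Psrc1, Gpsm2, Ncapd2 and Cdca3. With S3 and S5 left out, 8 of the 43 members no longer passed the filter, while 12287 of 12639 genes still did. Members that passed only through S3 or S5 were nearly bound to be highest there, so these shares are partly set by the filter.

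**Figure D4:**
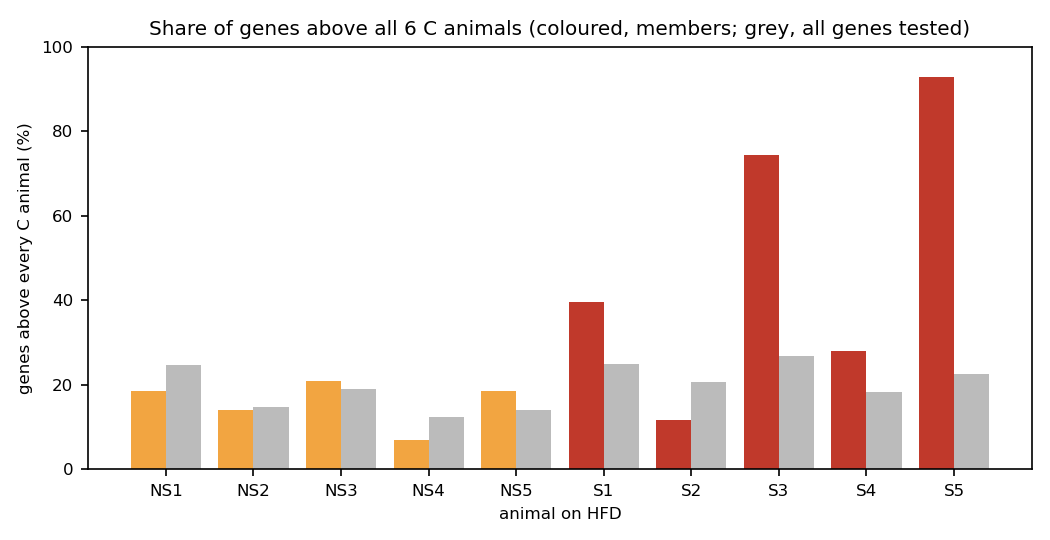
Percentage of genes whose level was above all 6 C animals in each of the 10 animals on HFD (x axis), for the 43 members (coloured bars, NS in orange and S in red) and for all 12639 genes tested (grey bars). The coloured bar was 93.0% in S5 and 74.4% in S3, against 6.98 to 39.5% in the other 8 animals, while the grey bars stayed between 12.4 and 26.9%.

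S3, a BW male, and S5, a BW female, did not have the same profile. The level in S3 was set against that in S5 for the 42 members with at least 10 counts in both together, with a 95% exact interval for counting error, which compares those libraries and not conditions. The interval lay above 1 for 11 members, below 1 for 15 and held 1 for 16. Higher in S3 were 3 cytokinesis genes and Top2a, with ratios of 12.1 (5.66 to 29.5) for Kif23, 5.66 (3.14 to 10.7) for Ect2, 4.88 (3.73 to 6.45) for Top2a and 2.66 (1.44 to 5.00) for Anln. Cks2, at 2.89 (2.22 to 3.78), and Ncapg, at 2.78 (1.75 to 4.45), were also higher in S3.

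Of the 15 members higher in S5, 7 are given here, and Kif11, Birc5, Smc4, Gpsm2 and Cdca3 were among the others. The ratio was 0.141 (0.0279 to 0.440) for Nusap1, 0.146 (0.0168 to 0.580) for Nuf2 and 0.161 (0.0506 to 0.397) for Ccnb2. It was 0.197 (0.0763 to 0.427) for Tpx2, 0.202 (0.0524 to 0.560) for Cenpe, 0.265 (0.132 to 0.487) for Cenpf and 0.285 (0.136 to 0.539) for Cdk1. Ccna2, Cdc20, Prc1 and Racgap1 were among the members whose interval held 1, as were Ndc80, Spc25 and Bub1 of the kinetochore and checkpoint genes.

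**Figure D5:**
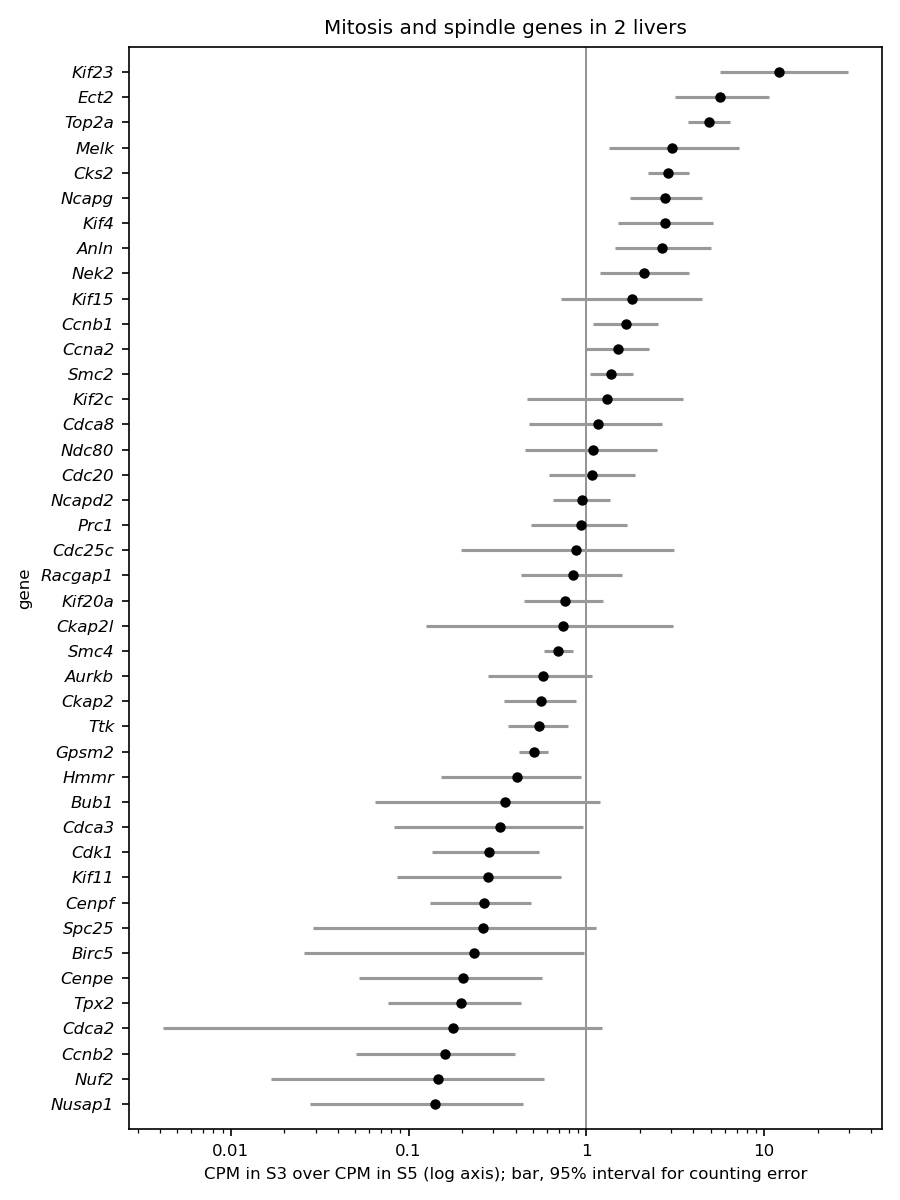
Level in S3 divided by level in S5 (x axis, log scale) for 42 members, with 95% exact intervals for counting error, ordered by the ratio. Kif23 is at the top at 12.1 and Nusap1 at the bottom at 0.141, so the members do not share 1 ratio between these livers.

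The cell type markers of the same 2 livers were also unusual. In S3 the 8 stellate cell and fibroblast markers summed to 2406 CPM, against 200 to 523 CPM in the other 15 animals, with none of the 8 at 0 and 3 of them above every C animal. Most of that sum was Col1a1, a collagen of scar matrix, at 2058 CPM, and Acta2, of smooth muscle and activated stellate cells, was at 45.8 CPM. In S5 the 9 macrophage and other myeloid markers summed to 647 CPM, against 101 to 442 CPM in the others, with none at 0 and 4 above every C animal (Marco 288 CPM, Vsig4 92.6 CPM, Csf1r 80.4 CPM). The 8 B and plasma cell markers summed to 20.2 CPM in S5, against 3.94 to 12.5 CPM elsewhere, with Ms4a1 at 0 there. The 5 bile duct markers summed to 35.0 CPM, against 4.79 to 18.6 CPM elsewhere, 25.7 of it Spp1, and the 8 hepatocyte markers to 54821 CPM, against 59437 to 103794 CPM. The T and NK cell markers were also highest in S5, at 16.0 CPM against 5.02 to 14.2 CPM. So were the endothelial markers, at 328 CPM against 149 to 315 CPM. The stellate cell and fibroblast markers and the erythroid markers were not highest there. The part of other cell types in the member levels of S3 and S5 was not tested.

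The marker lists were also compared between groups. In S vs C, 0 hepatocyte, T and NK cell, endothelial, bile duct or erythroid markers were called by edgeR or DESeq2, while 6 of 8 hepatocyte markers had an unadjusted p under 0.05, with Apoa1 at 0.96 and Ttr, Fgb, Ahsg, Cyp2e1 and Serpinc1 at -0.52 to -0.70 on the log2 scale, and a list median of -0.57. Of 7 endothelial markers 1, Cdh5, had such a p, at 0.75. The myeloid list had S100a8 and S100a9 lower (log2 fold changes -1.98 and -1.77), the B cell list had Cd79b higher (1.83), and the stellate list had Col1a1 higher (5.56) and Dcn lower (-1.05), of which DESeq2 called Dcn but not Col1a1. The summed levels of the T and NK cell markers were 5.02 to 14.2 CPM in C, 7.73 to 14.2 CPM in NS and 6.94 to 16.0 CPM in S, and those of the endothelial markers 149 to 281, 161 to 257 and 149 to 328 CPM. The erythroid list, with 2 of 8 tested, summed to 1.56 to 5.51 CPM in C, 2.57 to 11.1 CPM in NS and 1.48 to 7.43 CPM in S.

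Other genes of the pathway were taken from lists by name, to be read beside 3.09% of all genes called higher in S vs C and an all-gene median of 0.10. Of 58 further mitosis genes tested, 4 rose in S vs C and 0 fell, with a median log2 fold change of 0.59. They were Incenp, the scaffold of the passenger complex (2.34, adjusted p = 0.0414), Pbk, a mitotic kinase (3.36, adjusted p = 0.0646), Cenpo, a kinetochore subunit (1.93, adjusted p = 0.0833), and Shcbp1, a midbody protein listed at 0 counts in all 6 C animals (adjusted p = 0.0956), and DESeq2 called the same genes except Shcbp1. Incenp had 0.139 to 0.625 CPM in C and 0.853, 1.67, 4.88, 1.22 and 2.19 CPM in S1 to S5. Every S animal was thus above every C animal, as for 1.86% of all genes tested. Of the 58 genes of this list, 35 in S5 were above every C animal, beside 22.6% of all genes. In S3 14 of the 58 were, beside 26.9% of all genes, so the share of this list in S3 was not above that of all genes. Citron kinase, Cit, a cytokinesis gene named here after its values were seen, had 7.70 CPM in S3, 0.286 in S5 and 0 to 1.28 CPM in C.

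Of 11 transcription factors tested, which switch on mitotic genes or shape their timing, only Mybl2 was called in S vs C, by edgeR and not by DESeq2. It had 4.88 CPM in S3, 0 in S5, 0 in all C animals and at most 0.136 CPM elsewhere. Foxm1, an activator of G2/M genes, had 1.88 CPM in S3 and 1.81 in S5 against 0.139 to 1.14 CPM in C and 1.89 CPM in NS1 (0.59, adjusted p = 0.678). Of 12 genes of CDK inhibition and cell cycle arrest, Gadd45a was called higher (1.81, adjusted p = 0.0497), and the p21 gene Cdkn1a was not (0.20, adjusted p = 0.823), with 18.8 CPM in S3, 18.5 in S5 and 4.69 to 20.3 CPM in C.

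Of 29 genes of DNA replication and the G1/S step, 4 rose in S vs C and 0 fell, beside 3.09% of all genes called higher. The list median was 0.36, beside 0.10 over all genes. DNA ligase 1, Lig1, had 9.84 to 22.5 CPM in C and 29.5, 48.0, 36.8, 31.4 and 34.5 CPM in S1 to S5, above all C and all NS animals in all 5 (1.13, adjusted p = 0.0125). The helicase subunits Mcm4 (1.28, adjusted p = 0.0360) and Mcm6 (1.08, adjusted p = 0.0497) and the chromatin assembly factor subunit Chaf1a (1.40, adjusted p = 0.0476) were the others. Mcm4 was 6.58, 3.34, 7.88, 4.01 and 5.25 CPM in S1 to S5 against 1.66 to 3.15 CPM in C. For Lig1, Mcm4 and Chaf1a all S animals were above all C animals. In the mitosis set this held for 2 of 43 members, Ckap2 and Racgap1, beside 1.86% of all genes tested. For the other 2 comparisons edgeR called 0 of the 165 genes tested in all these lists, cell type markers included. NS vs C had 16 of 165 at an unadjusted p under 0.05, beside 8.29% of all genes, among them Incenp, Pbk, Lig1 and Gadd45a. DESeq2 called 1 there (Apoa1, an apolipoprotein of hepatocytes). S vs NS had 18 of 165 at such a p, beside 10.9% of all genes, and DESeq2 called 1 (Mcm6). Both counts were near the share of all genes.

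The symbols of 42 members matched a gene of the RefSeq annotation of deer mouse assembly HU_Pman_BW_mat_3.1, in which 18 overlapped another gene. Among the called members these were Ccna2 (with Exosc9), Gpsm2 (with Aknad1) and Anln (with Matcap2), and Tpx2 overlapped Bcl2l1. The strand setting of the counting was not given in the sources used here, so reads of such neighbours may not be told apart.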

How the data were processed

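RNA was extracted from the livers of 16 deer mice, sequenced as paired ends from a directional library kit, aligned by the authors to HU_Pman_2.1 with STAR 2.7.2 and counted per gene with featureCounts (Subread). The deposited values are raw counts without normalization, between 4640733 and 11349971 per animal. The strand setting and the conversion to symbols were not given in the sources used here.

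Members were taken by symbol. The members and gene lists were chosen with earlier results of these data known. Groups, sex and stock came from the sample labels. The counts of no pair of animals in a group agreed within sampling noise (lowest chi-square per degree of freedom 23.56), so each animal was 1 replicate.

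Counts were fitted with edgeR 4.0.16 (R 4.3.3, limma 3.58.1; quasi-likelihood test, TMM normalization, genes that reached 0.5 CPM in 1 or more animals, 1 fit of all 16 animals without covariates). P-values were adjusted by Benjamini-Hochberg over 12639 genes, and a gene was called when its adjusted p was under 0.1 and its fold was 2 or more, thresholds that the methods of the study give. The code was tested on simulated data in which only well-counted genes were changed, so that test does not cover members with a few counts. CPM are TMM-normalized. Values in every animal were given for called members and, called or not, for Cdk1, Top2a, Ccnb1 and Aurkb; Mki67 and Plk1, also on that list, were not analysed here. Alternatives were DESeq2 1.42.0, its size factors, no filter, at least 1 CPM in 5 animals, 2 groups alone, stock or sex as a covariate, BW or male animals alone, other thresholds and each animal left out. Python 3.11.15 with pandas 2.3.3, numpy 2.4.6, scipy 1.17.1 and matplotlib 3.10.9 built the summaries and figures. No sequence was used, and RefSeq coordinates, of another assembly, served only to find neighbours.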

Additional observations from a re-analysis of the deposited data

Results flagged for a closer look

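For the 13 members given animal by animal and their sum, each group was checked for an animal that lay far from the rest, 42 groups in all, and 9 were found. Chance alone gives about 1 in 20 for normally distributed values. Many of these levels are a few counts, and 11 of the 13 members were picked because they were called in S vs C. That rate therefore does not apply here, and whether 9 exceed chance was not tested. In S, the animal was S5 for Cdk1 (7.25 CPM, next 2.06) and Cenpf (8.49 CPM, next 2.25), and S3 for Kif23 (9.20 CPM, next 0.763), Ect2 (8.63 CPM, next 1.53) and Top2a (35.9 CPM, next 7.34). In NS it was NS3 for Ccna2 (0.592 CPM, next 0.255). In C it was C4 for Prc1 (0.555 CPM, next 0.197) and C6 for Ect2 (0.555 CPM, next 0.190), both high, and C3 for Ccnb1, low at 0.433 CPM with the next animal at 1.04 CPM. The C and NS values are a few counts each.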

How the results depend on the processing

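In S vs C the count of called members, 11, was 5 of the 18 members tested with at least 1 CPM in 5 animals (7 called members were no longer tested) and 7 with 2 groups alone, and 5 at an adjusted p under 0.05; it ranged from 4 to 16 when 1 animal was left out and was 1 without S3 and S5. DESeq2 gave 14, stock as a covariate or BW animals alone 16, sex as a covariate 8, males alone 12 and no filter 9. For S vs C the share of all genes called is given only for the reported fit and for the fit without S3 and S5. Whether the other counts moved apart from that share was not tested. The median log2 fold change, 1.58, was 0.80 with at least 1 CPM in 5 animals (0.79 for the same 18 members in the reported fit), 0.42 without S3 and S5 (1.37 for the same 35 members with them), and 1.17 to 1.76 with 1 animal left out. In NS vs C the count stayed 0 in all 22 alternatives, and with 1 animal left out the median ranged from -0.21 (without C2) to 0.00. In S vs NS the count, 0, was 4 with DESeq2, 1 with stock as a covariate and with BW animals alone, 2 with sex as a covariate (Kif23 and Top2a), 3 in males alone (with Ccna2), and 0 to 1 with 1 animal left out (Gpsm2 without S1 or S3); its median, 1.66, was 0.84 with at least 1 CPM in 5 animals (0.82 for the same 18 in the reported fit) and 0.38 without S3 and S5 (1.34 for the same 35 with them). The median shifts under the filter are thus of the members tested; the cause of the other shifts was not tested. Directions turned for Ccna2 without S3 and S5 (-0.46 against C, -0.15 against NS), and for Aurkb with sex as a covariate and in males alone (both settings gave -0.29 for S vs C and -0.25 for S vs NS). The NS vs C values near 0 changed sign too: -0.05 for Prc1 with stock as a covariate and 0.96 for Kif23 in BW animals alone, and, with 1 animal left out, -0.34 to 0.63 for Prc1, -0.36 to 0.70 for Kif23, -0.41 to 0.89 for Ect2 and -0.38 to 0.18 for Aurkb. No paired analysis was made, because each library came from a different animal and the labels name no pairs. Most members had under 1 CPM in C, so depth limits them.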
